A study of Mus musculus with 6 samples.

Results

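The genes described here are 10 endothelial genes in bulk RNA sequencing of mouse liver tumors, taken by gene symbol from the deposited table of 47643 genes. They are 4 genes shared by most endothelium (Pecam1, Cdh5, Kdr and Eng), 2 genes of capillaries and larger vessels (Plvap and Vwf) and 4 genes of liver sinusoids (Stab2, Lyve1, Clec4g and Oit3), and all 10 were found and passed the filter on low counts. The tumors came from FVB/N mice with the LAP-tTA and tetO-MYC transgenes, given doxycycline at 100 mg/L in drinking water until 4 weeks of age and then kept with MYC on for 8 weeks. The treated mice next were dosed for 2 weeks with GSK3326595, which blocks the protein methylating enzyme PRMT5, at 50 mg/kg/day (3 libraries), and the control mice received vehicle (3 libraries). Both groups carried the same transgenes and the same induced MYC, so neither shows liver without MYC. The LAP promoter is active in hepatocytes, so the endothelium of these tumors is host tissue around cells that carry active MYC. Whether the numbered replicates are different animals is not in the labels, so each p-value speaks of the spread among these libraries, which may be technical.

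Endothelial cells line blood vessels, and their junctions, growth factor receptors and scavenger receptors give them a recognisable set of transcripts. In the liver, the capillary bed is formed by sinusoids, whose lining is fenestrated, lacks a continuous basement membrane and clears waste molecules from the blood. When sinusoidal endothelium loses this character, as in fibrosis and in liver tumors, it takes on features of ordinary capillaries, a change called capillarization.

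GSK3326595 libraries held between 25814339 and 32427490 expected counts, and vehicle libraries between 31480006 and 33621083. Hepatocyte transcripts were abundant in all of them, with Alb between 3157 and 11714 CPM in GSK3326595 tumors and between 4985 and 11944 CPM in vehicle tumors. CPM here is the read count scaled to library size with TMM factors, which adjusts for differences in library composition. GSK3326595 replicate 2 stood apart on the first principal component of all genes tested, which held 38.1% of the variance. It lay at 103.1, the other GSK3326595 libraries at -5.33 and 9.37, and the vehicle libraries between -50.2 and -7.52. In a bulk sample, fewer cells of a type and less RNA per cell cannot be told apart.

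The comparison asks how the PRMT5 inhibitor altered these tumors, and none of the 10 endothelial genes was called. Over all 17012 genes tested, edgeR's quasi-likelihood test called 0 genes at an adjusted p under 0.05, a share of 0%, and the smallest adjusted p was 0.455. Limma-voom also called 0, while DESeq2 called 286 genes, 1.68% of those tested, among them none of the 10. At an unadjusted p under 0.05, edgeR had 0 of the 10 members, against 9.26% of all genes tested (5.45% higher and 3.81% lower). That share also moved when single libraries were left out. It was 10.6%, 10% and 13% without GSK3326595 replicates 1 to 3, and 3.4%, 5.61% and 10.2% without vehicle replicates 1 to 3. Counts given below without single libraries stand beside these shares. All 10 genes overlapped between the groups, whereas 14.4% of all genes tested did not (6.72% with higher and 7.66% with lower GSK3326595 values). Of all 17012 genes tested, 9041 had higher and 7971 lower values in GSK3326595 tumors. Of the 10 members, 7 had higher values and 3 lower values in GSK3326595 tumors, with a median log2 difference of 0.54 beside 0.03 for all genes tested. Without GSK3326595 replicate 2, 4 members had higher values and 6 lower values, and the median was -0.47.

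**Figure D1:**
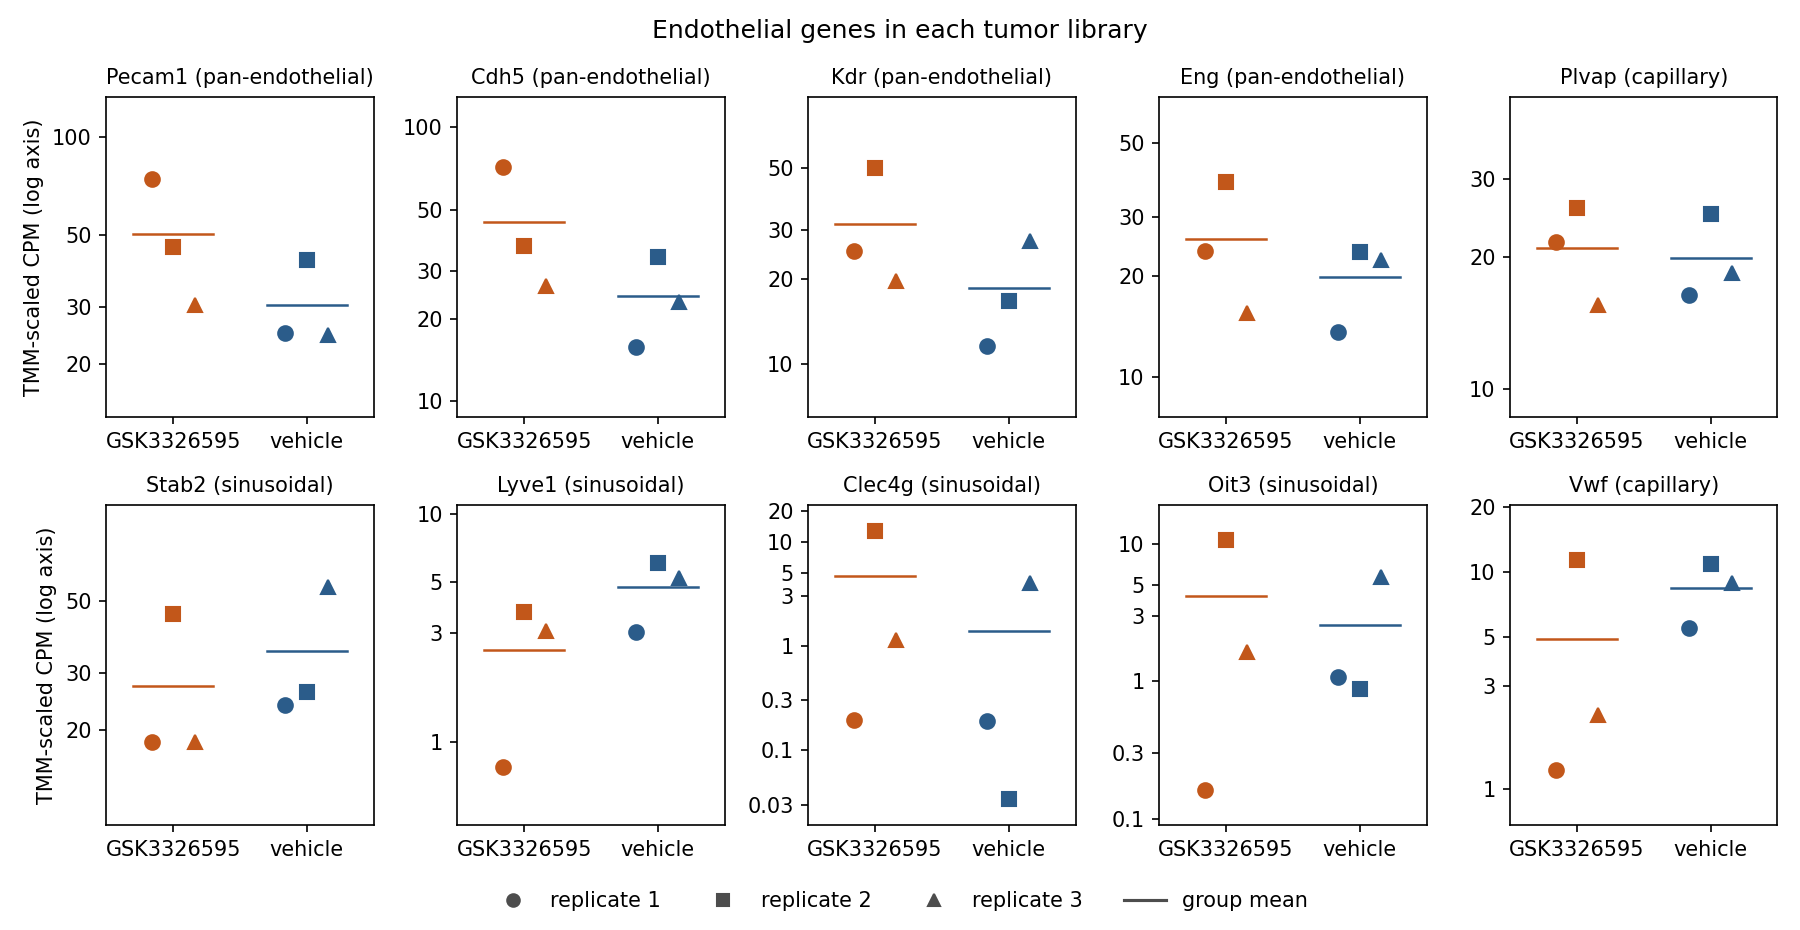
TMM-scaled CPM (log axis, own scale in each panel) of the 10 endothelial genes, with a point for each library, shaped by replicate number, and a line at the group mean, GSK3326595 left and vehicle right. The 2 groups overlap in each panel, Plvap is spread least, and Clec4g and Oit3 have their high points in GSK3326595 replicate 2 and vehicle replicate 3.

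The pan-endothelial genes all had higher mean values in GSK3326595 tumors, by a median log2 difference of 0.75, and none passed the test. Pecam1 encodes PECAM-1, an adhesion molecule of endothelial junctions that platelets and leukocytes also carry (ENSMUSG00000020717.19; chromosome 11, 106654217 to 106750628, minus strand, mm10). It had 74.3, 46.0 and 30.5 CPM in GSK3326595 replicates 1 to 3, against 24.9, 41.7 and 24.6 CPM in vehicle replicates 1 to 3. GSK3326595 replicate 1 was the highest library, and vehicle replicate 2 lay above GSK3326595 replicate 3. The log2 difference was 0.73 ± 0.38 (SE), with a 95% interval from -0.17 to 1.62 and an edgeR adjusted p of 0.602.

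Cdh5 encodes VE-cadherin, the adhesion protein of endothelial adherens junctions (ENSMUSG00000031871.8; chromosome 8, 104101625 to 104144511, plus strand). Its values were 71.9, 36.8 and 26.4 CPM in GSK3326595 tumors, against 15.7, 33.7 and 23.0 CPM in vehicle tumors. The order of libraries was nearly that of Pecam1, with GSK3326595 replicate 1 highest and GSK3326595 replicate 2 second. Its log2 difference of 0.90 ± 0.44 (SE; 95% interval -0.15 to 1.95, edgeR adjusted p = 0.579) had the smallest unadjusted p of the 10 genes, at 0.0823 by edgeR.

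Kdr encodes VEGFR2, the main signalling receptor for VEGF-A on endothelium (ENSMUSG00000062960.10; chromosome 5, 75932827 to 75978458, minus strand). It had 25.1, 49.8 and 19.8 CPM in GSK3326595 tumors and 11.6, 16.7 and 27.4 CPM in vehicle tumors. Here GSK3326595 replicate 2 was highest and vehicle replicate 3 second, unlike Pecam1 and Cdh5. Kdr differed by a log2 value of 0.77 ± 0.45 (SE; 95% interval -0.31 to 1.84, edgeR adjusted p = 0.644).

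Eng encodes endoglin, a co-receptor for BMP9 and TGF-beta ligands (ENSMUSG00000026814.16; chromosome 2, 32646595 to 32682669, plus strand). It had 23.8, 38.2 and 15.5 CPM in GSK3326595 tumors and 13.7, 23.7 and 22.4 CPM in vehicle tumors, so that GSK3326595 replicate 3 lay under all but the lowest vehicle library. For Eng the log2 difference came to 0.38 ± 0.38 (SE; 95% interval -0.53 to 1.28, edgeR adjusted p = 0.813). The sizes depended on single libraries. Without GSK3326595 replicate 1, Pecam1 differed by 0.33 and Cdh5 by 0.39, and without GSK3326595 replicate 2, Kdr differed by 0.32 and Eng by 0.02 (log2). With each library left out in turn no pan-endothelial gene turned to a lower value, and their median ranged between 0.41, lacking GSK3326595 replicate 1, and 1.02, lacking GSK3326595 replicate 3. With GSK3326595 replicate 3 left out, Pecam1 and Cdh5 were under an unadjusted p of 0.05 by edgeR (edgeR adjusted p = 0.344 and 0.359). With vehicle replicate 2 left out, both were again (edgeR adjusted p = 0.859 each). With vehicle replicate 3 left out, Kdr was (edgeR adjusted p = 0.479).

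Plvap and Vwf, the capillary and large-vessel pair, differed in how they varied. Plvap encodes the protein of fenestral and caveolar diaphragms, which sinusoidal fenestrae of the adult liver largely lack (ENSMUSG00000034845.5; chromosome 8, 71497765 to 71511752, minus strand). It had 21.6, 25.8 and 15.5 CPM in GSK3326595 tumors and 16.3, 25.1 and 18.3 CPM in vehicle tumors. The ratio of the highest to the lowest of the 6 libraries was 1.67, the smallest of the 10 genes. The log2 difference was 0.07 ± 0.27 (SE; edgeR adjusted p = 0.964), and its 95% interval, -0.57 to 0.72, was the narrowest of the set. It was -0.06 without GSK3326595 replicate 2 and -0.05 without vehicle replicate 1.

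Vwf encodes von Willebrand factor, the platelet-tethering glycoprotein stored in the granules of larger-vessel endothelium and scarce in normal sinusoids (ENSMUSG00000001930.17; chromosome 6, 125546774 to 125686679, plus strand). It had 1.22, 11.4 and 2.20 CPM in GSK3326595 tumors and 5.54, 10.9 and 8.92 CPM in vehicle tumors. GSK3326595 replicates 1 and 3 lay under all 3 vehicle libraries, while GSK3326595 replicate 2 was the highest of the 6. With all libraries the log2 difference was -0.78 ± 0.81 (SE; 95% interval -2.70 to 1.15, edgeR adjusted p = 0.821). Without GSK3326595 replicate 2 it was -2.25 ± 0.47 (SE; edgeR unadjusted p = 0.00316, adjusted p = 0.459), and the pair's median was -1.16 in place of -0.35. The Vwf difference was -0.32 without GSK3326595 replicate 1, -0.41 without GSK3326595 replicate 3 and between -1.01 and -0.55 without single vehicle libraries. Relative to Pecam1 within the same library, Vwf lay at a log2 ratio of -5.85, -2.01 and -3.75 in GSK3326595 tumors and -2.15, -1.93 and -1.46 in vehicle tumors. On that ratio, the GSK3326595 libraries again spanned a wider range than the vehicle libraries, and GSK3326595 replicate 2 lay inside the vehicle range.

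Platelets and megakaryocytes also make Vwf. Of 8 platelet genes, 6 were kept by the filter, and Gp6, the collagen receptor, and Gp9 lay at or under 0.136 CPM in all libraries. Their summed level was 12.5, 8.37 and 6.17 CPM in GSK3326595 tumors and 7.26, 13.1 and 6.86 CPM in vehicle tumors. The part of platelets in the Vwf values was not tested. Of the 6, 3 had higher and 3 lower values (median log2 difference -0.09). Gp5, a subunit of the von Willebrand factor receptor of platelets, had 0.451, 1.08 and 0.505 CPM in GSK3326595 tumors and 0.319, 0.204 and 0.358 CPM in vehicle tumors (log2 difference 1.201 ± 0.497, SE; edgeR unadjusted p = 0.0479, adjusted p = 0.534). Ppbp, a chemokine of platelet granules, differed by -1.18 ± 0.54, and Gp1ba, another subunit of that receptor, by -0.42 ± 0.30 (log2, SE). Of the 6 genes listed as partners of von Willebrand factor, 4 were kept, 3 of them with higher values (median 0.53). Of these partners 1, Gp5, was higher at an unadjusted p under 0.05, beside 5.45% of all genes tested. Gp5 was not under that threshold without GSK3326595 replicate 2 or any single vehicle library. Adamts13, the protease that trims von Willebrand factor and is made by stellate cells, differed by 0.79 ± 0.59 (log2, SE).

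Of the sinusoidal genes, Clec4g and Oit3 had the widest ranges over libraries of the 10 genes, Lyve1 ranged less than Vwf, and Stab2 less than Cdh5, Kdr and Pecam1. The 4 had no common direction between the groups. Their median log2 difference was 0.17, with 2 genes of higher and 2 of lower values, and it lay between -1.14 without GSK3326595 replicate 2 and 1.14 without vehicle replicate 3. Stab2 encodes stabilin-2, the sinusoidal scavenger receptor that takes up hyaluronan (ENSMUSG00000035459.15; chromosome 10, 86841198 to 87008025, minus strand). It had 18.3, 45.4 and 18.4 CPM in GSK3326595 tumors and 23.8, 26.1 and 54.9 CPM in vehicle tumors. Vehicle replicate 3 and GSK3326595 replicate 2 were high, and the other 4 libraries lay between 18.3 and 26.1 CPM. The log2 difference was -0.35 ± 0.49 (SE; 95% interval -1.51 to 0.81, edgeR adjusted p = 0.878), and it was 0.16 without vehicle replicate 3.

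Lyve1 encodes another hyaluronan receptor, found on sinusoidal and lymphatic endothelium and on some macrophages (ENSMUSG00000030787.3; chromosome 7, 110850607 to 110863239, minus strand). It had 0.774, 3.72 and 3.07 CPM in GSK3326595 tumors and 3.03, 6.09 and 5.22 CPM in vehicle tumors. GSK3326595 replicate 1 was lowest, and the other GSK3326595 libraries lay just above the lowest vehicle library. The log2 difference was -0.92 ± 0.59 (SE; 95% interval -2.33 to 0.48, edgeR adjusted p = 0.671). With single libraries left out it ranged between -1.26, without GSK3326595 replicate 2, and -0.49, without GSK3326595 replicate 1.

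Clec4g encodes LSECtin, a C-type lectin of sinusoidal endothelium (ENSMUSG00000074491.9; chromosome 8, 3707064 to 3720651, minus strand). It had 6, 410 and 32 reads in GSK3326595 tumors, or 0.193, 12.7 and 1.15 CPM. In vehicle tumors it had 6, 1 and 134 reads, or 0.191, 0.034 and 4.00 CPM. GSK3326595 replicate 2 held 65.7 times the level of GSK3326595 replicate 1 in the same group. The low values of 1 to 6 reads carry a wide counting error. The log2 difference of 1.73 ± 1.77 (SE; 95% interval -2.50 to 5.96, edgeR adjusted p = 0.817) was -1.01 without GSK3326595 replicate 2. Without vehicle replicate 3 it was 5.34 ± 2.06 (SE; edgeR unadjusted p = 0.0422, adjusted p = 0.478).

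Oit3 encodes a secreted zona pellucida domain protein found in sinusoidal endothelium (ENSMUSG00000009654.4; chromosome 10, 59422958 to 59441778, minus strand). It had 0.161, 10.7 and 1.62 CPM in GSK3326595 tumors and 1.08, 0.884 and 5.73 CPM in vehicle tumors. The high libraries were again GSK3326595 replicate 2 and vehicle replicate 3, with GSK3326595 replicate 3 next, as for Clec4g. The log2 difference was 0.70 ± 1.33 (SE; 95% interval -2.48 to 3.88, edgeR adjusted p = 0.925). It was -1.47 without GSK3326595 replicate 2, and -0.30 by limma-voom with all libraries.

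**Figure D2:**
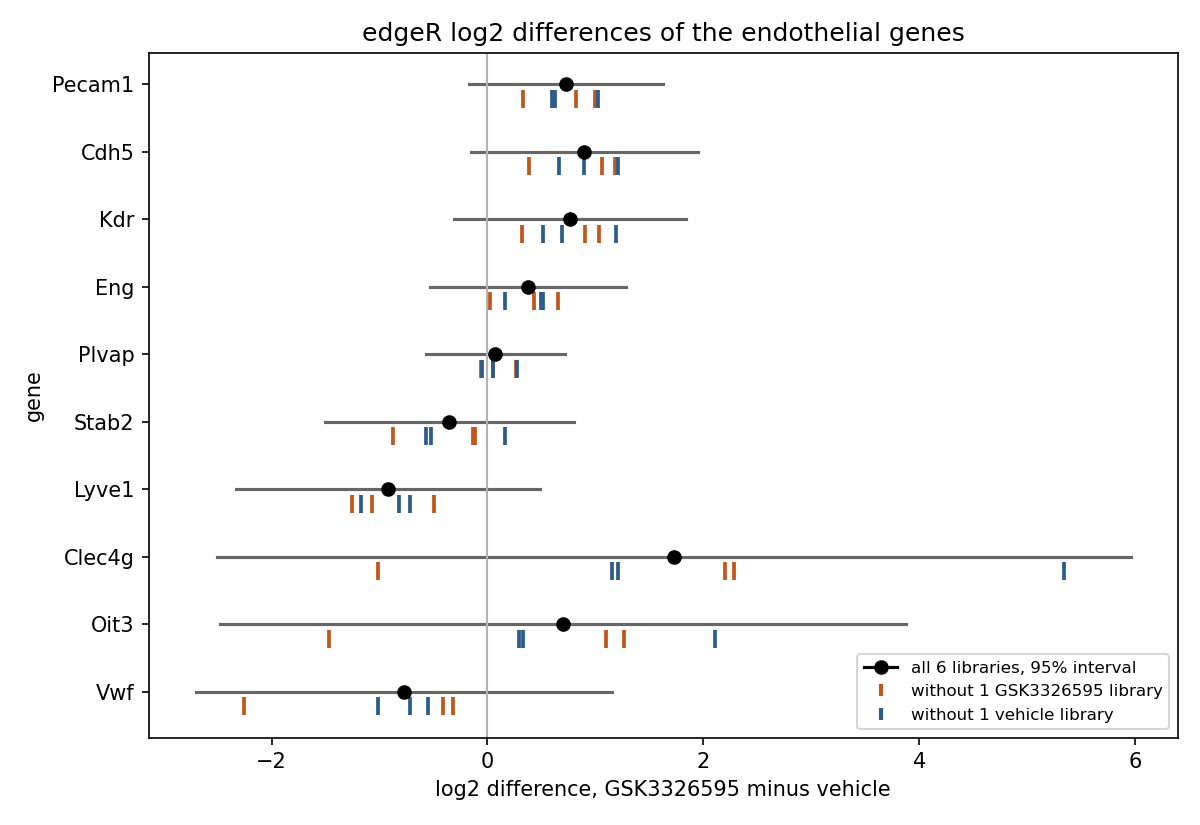
Log2 difference (GSK3326595 minus vehicle, edgeR) of each endothelial gene, with points for all 6 libraries, lines for the 95% interval and ticks for the value without each single library. Each interval crosses 0, and the ticks cross 0 for Plvap, Stab2, Clec4g and Oit3, while the Vwf tick farthest from the others is the value of -2.25 without GSK3326595 replicate 2.

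Promoter windows were available from RefSeq (GRCm38.p6) for 4 of the 10 genes, each from 250 bases before to 50 bases after the gene's start. A pair is shown, as Clec4g varied most between libraries and Kdr belongs to the steadier pan-endothelial class. Capitals mark each match to the core letters of ETS transcription factor motifs, GGAA on either strand, since ETS factors such as ERG and FLI1 are regulators of endothelial genes. The windows are chr8:3720602-3720901 for Clec4g and chr5:75978406-75978705 for Kdr, both on the minus strand.
Clec4g: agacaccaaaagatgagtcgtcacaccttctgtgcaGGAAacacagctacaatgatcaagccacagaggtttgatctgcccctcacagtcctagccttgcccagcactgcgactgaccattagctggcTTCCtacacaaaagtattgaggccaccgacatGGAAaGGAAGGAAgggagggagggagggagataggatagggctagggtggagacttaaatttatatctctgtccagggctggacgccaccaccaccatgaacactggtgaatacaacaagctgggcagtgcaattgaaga
Kdr: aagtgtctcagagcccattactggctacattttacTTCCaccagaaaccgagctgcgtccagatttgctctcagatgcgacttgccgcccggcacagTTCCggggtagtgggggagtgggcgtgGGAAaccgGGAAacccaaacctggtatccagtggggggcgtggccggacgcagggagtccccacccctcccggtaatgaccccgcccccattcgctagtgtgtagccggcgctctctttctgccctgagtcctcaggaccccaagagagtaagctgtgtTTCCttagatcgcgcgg
The Clec4g and Kdr windows held 5 matches each, against 6 for Stab2 and 4 for Eng. Of all 32851 windows of this length, 96% held at least 1 match, with a median of 3, so the counts do not separate the sinusoidal from the pan-endothelial genes. The longer letters AGATAA, known from binding by the Gata4 family, were searched on both strands. No match was found in the 4 windows, and these letters occurred in 11.2% of all windows. Only this exact form was searched. The Clec4g window above holds the similar letters AGATAG, so the search does not show that the windows lack GATA-like letters. Some Clec4g matches adjoin one another in 1 run, and a match is a description of letters, not a bound site.

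Levels between genes were compared per kilobase of merged exons, from GENCODE M21. In GSK3326595 tumors, Cdh5 was highest with a mean of 10.7 CPM per kb, followed by Plvap at 10.5, Pecam1 at 8.07, Eng at 6.38, Kdr at 3.496 and Stab2 at 3.125. Clec4g averaged 1.90, Oit3 1.496, Lyve1 0.863 and Vwf 0.307 CPM per kb in those tumors. In vehicle tumors, Plvap was highest at 10.02 CPM per kb, ahead of Cdh5 at 5.75, Eng at 4.92, Pecam1 at 4.88, Stab2 at 3.99, Kdr at 2.05, Lyve1 at 1.64, Oit3 at 0.92, Clec4g at 0.572 and Vwf at 0.527. Neighbours in the GSK3326595 order overlapped in their ranges over libraries. In the vehicle order the single pair of neighbours without overlap was Plvap, at 8.23 to 12.6, above Cdh5, at 3.75 to 8.02 CPM per kb. Plvap was thus among the highest of the set per length in both groups, and Vwf had the lowest mean.

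The 10 genes did not order the libraries alike. GSK3326595 replicate 2 held the highest value for 6 of the 10 genes, and GSK3326595 replicate 1 the highest for 2 (Pecam1 and Cdh5) and the lowest for 4 (Stab2, Lyve1, Oit3 and Vwf). Mean log2 CPM of the 4 sinusoidal genes was -0.04, 3.63 and 1.72 in GSK3326595 tumors and 1.11, 0.98 and 3.19 in vehicle tumors. For the 4 pan-endothelial genes it was 5.40, 5.41 and 4.48 in GSK3326595 tumors and 3.99, 4.78 and 4.61 in vehicle tumors. The log2 range over the 6 libraries was 7.02 for Clec4g, 5.58 for Oit3, 3.15 for Vwf and 2.88 for Lyve1, against a median of 1.08 over all genes tested. Stab2, Pecam1, Cdh5, Kdr and Eng, between 1.48 for Eng and 2.19 for Cdh5, were also above that median. Plvap, with 0.73, was under it.

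**Figure D3:**
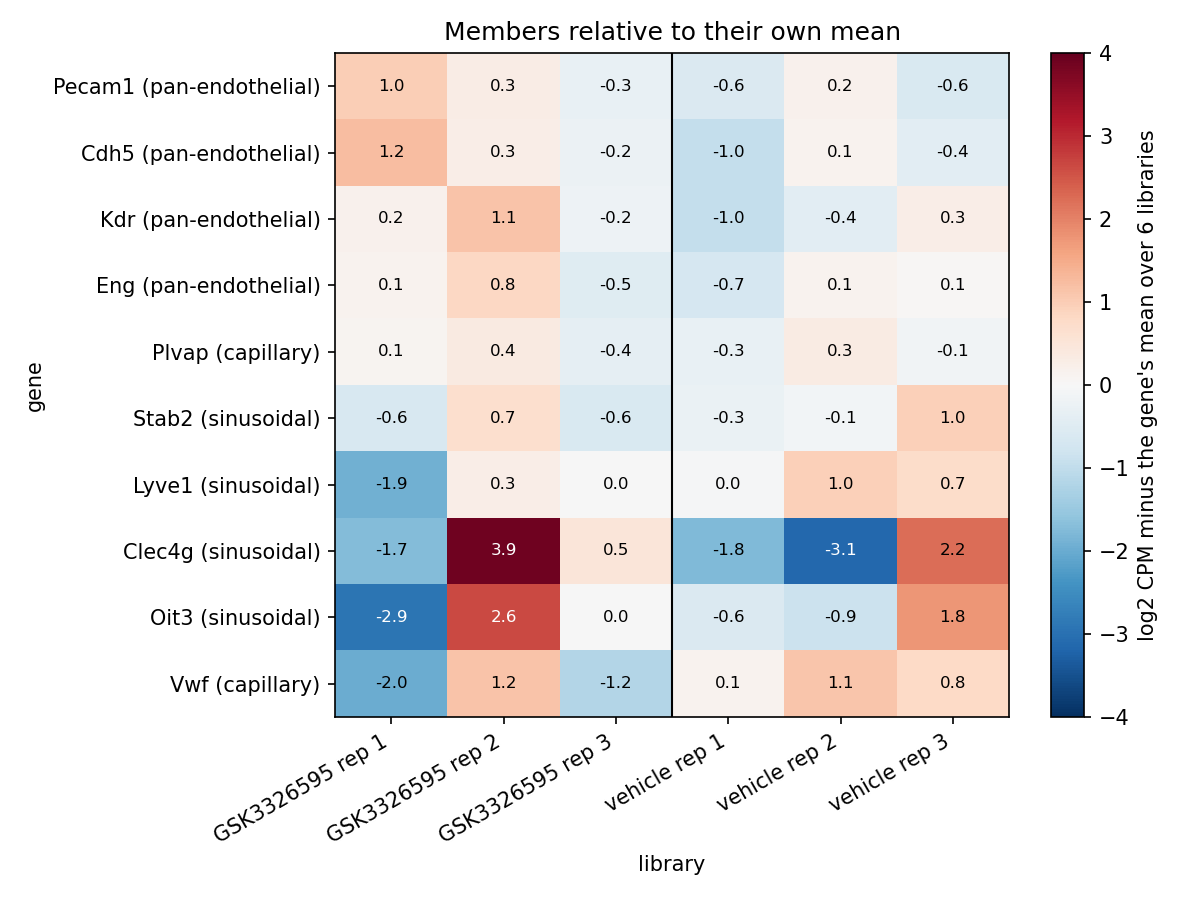
Log2 CPM of each endothelial gene minus its own mean over the 6 libraries, in log2 units, with GSK3326595 libraries left of the black line and vehicle libraries right of it. Red cells lie above and blue cells below the gene's mean. GSK3326595 replicate 1 is red for Pecam1 and Cdh5 and blue for the 4 sinusoidal genes and Vwf, and GSK3326595 replicate 2 and vehicle replicate 3 are reddest for Clec4g and Oit3.

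Within a library, the sinusoidal mean minus the capillary mean depends little on scaling between libraries. It was -2.44, -0.47 and -0.85 in GSK3326595 tumors and -2.15, -3.08 and -0.50 in vehicle tumors (log2 units). The group means were -1.25 ± 1.05 and -1.91 ± 1.31 (SD, n = 3 each) for GSK3326595 and vehicle tumors, a difference of 0.66 that was smaller than either SD. Both groups thus held libraries with high and libraries with low values of this difference. A low value did not always go with a high capillary level. Vehicle replicate 2, with the lowest value of -3.08, had a high capillary mean (4.05). GSK3326595 replicate 1, at -2.44, had the lowest capillary mean of the 6 libraries (2.40), and GSK3326595 replicate 2, at -0.47, had the highest (4.10). The sinusoidal mean minus the pan-endothelial mean was -5.44, -1.77 and -2.76 in GSK3326595 tumors and -2.88, -3.80 and -1.42 in vehicle tumors, and GSK3326595 replicate 1 stood lowest on it.

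Of 15 other listed genes of sinusoidal endothelium, 13 were kept, 10 with higher and 3 with lower values in GSK3326595 tumors, at a median log2 difference of 0.52. Without GSK3326595 replicate 2, 4 were higher, 9 were lower and the median was -0.17. Gata4, a transcription factor that specifies sinusoidal endothelium in mice and is also expressed elsewhere in liver, had 11.7, 10.6 and 11.8 CPM in GSK3326595 tumors and 16.3, 14.6 and 18.1 CPM in vehicle tumors. Its groups did not overlap, and the log2 difference was -0.53 ± 0.20 (SE; edgeR unadjusted p = 0.0327, adjusted p = 0.522). It was the list's 1 gene at an unadjusted p under 0.05 by edgeR, and was lower, as were 3.81% of all genes tested. That count of 1 was 0 when GSK3326595 replicate 2, vehicle replicate 1 or vehicle replicate 2 was left out. With GSK3326595 replicate 3 or vehicle replicate 3 left out it was 2, from other genes. Bmp2, which sinusoidal cells secrete to control hepcidin, differed by 1.591 ± 1.001, and Maf, a sinusoidal transcription factor, by 0.52 ± 0.34 (log2, SE).

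Dnase1l3, a secreted DNase, had 2.58, 14.7 and 1.59 CPM in GSK3326595 tumors and 0.892, 0.816 and 6.68 CPM in vehicle tumors, and Ehd3, a membrane trafficking protein of liver sinusoids, 4.03, 27.9 and 6.78 CPM against 5.42, 4.97 and 14.3 CPM. Both were high in the same libraries as Clec4g and Oit3. Dnase1l3 was singled out after its values were seen. Stab1, the second stabilin, did not share this pattern, with 57.8, 47.8 and 26.8 CPM in GSK3326595 tumors and 34.6, 64.2 and 41.1 CPM in vehicle tumors, and was chosen in the same way.

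Some markers of other sinusoidal residents were high in the libraries that were high for Clec4g and Oit3. GSK3326595 replicate 1, low for both genes, was highest for the sums of the Kupffer, lymphatic and stellate lists. The stellate sum came next in GSK3326595 replicate 2 and vehicle replicate 3. The part of these other cells in the result was not tested. Clec4f, a lectin of Kupffer cells named after its values were seen, had 0.129, 23.5 and 5.37 CPM in GSK3326595 tumors and 1.05, 0.17 and 24.3 CPM in vehicle tumors. All 6 Kupffer genes listed were kept (4 higher, 2 lower, median log2 difference 0.33), and their sum did not follow the order of Clec4f. It was 690.8, 151.7 and 230.5 CPM in GSK3326595 tumors and 185.7, 264.4 and 346.2 CPM in vehicle tumors. Cd5l, Timd4 and Adgre1 of that list were highest in GSK3326595 replicate 1, and Cd5l, named after its values were seen, had 610.7, 89.9 and 190.1 CPM in GSK3326595 tumors and 157.9, 229.1 and 254.8 CPM in vehicle tumors. By the rule of smallest p, Marco, a scavenger receptor, differed by -2.36 ± 1.11, Adgre1, which encodes F4/80, by 0.52 ± 0.40, and Timd4, a receptor for dying cells, by 0.57 ± 0.49 (log2, SE). Marco had 0.645, 1.46 and 1.05 CPM in GSK3326595 tumors and 1.53, 0.680 and 14.0 CPM in vehicle tumors, so a single vehicle library was high. Limma-voom gave Marco a log2 difference of -1.32. Reln, a secreted glycoprotein of lymphatic endothelium and stellate cells, had 1.45, 55.9 and 13.3 CPM in GSK3326595 tumors and 2.17, 0.85 and 31.0 CPM in vehicle tumors. Of the 5 lymphatic genes only Reln and Prox1, a transcription factor that hepatocytes also express, passed the filter, and their median log2 difference was 0.55. The list's sum, 295, 215.9 and 173.7 CPM in GSK3326595 tumors and 218.3, 202.8 and 206.5 CPM in vehicle tumors, was mostly Prox1. Pdpn, Ccl21a and Mmrn1 lay at or under 1.70 CPM everywhere.

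Stellate cells and pericytes wrap sinusoids and capillaries. Their 8 listed genes, all kept, had 6 higher and 2 lower values (median log2 difference 0.60), and their sum was 203.7, 144.1 and 122.6 CPM in GSK3326595 tumors and 54.0, 112.9 and 142.0 CPM in vehicle tumors. Lrat, the retinol esterifying enzyme of stellate cells that is named for its pattern, had 1.19, 7.84 and 1.91 CPM in GSK3326595 tumors and 0.797, 0.646 and 4.56 CPM in vehicle tumors. Rgs5 differed by 0.98 ± 0.48, Pdgfrb, the receptor that recruits pericytes, by 0.81 ± 0.44, and Cspg4 by 0.65 ± 0.35 (log2, SE), each with an edgeR unadjusted p above the threshold. Pdgfrb had 69.3, 31.6 and 34.6 CPM in GSK3326595 tumors and 13.9, 29.0 and 34.4 CPM in vehicle tumors, so that GSK3326595 replicate 1 was highest, as for Pecam1 and Cdh5. The part of these cells in the endothelial values was not tested.

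**Figure D4:**
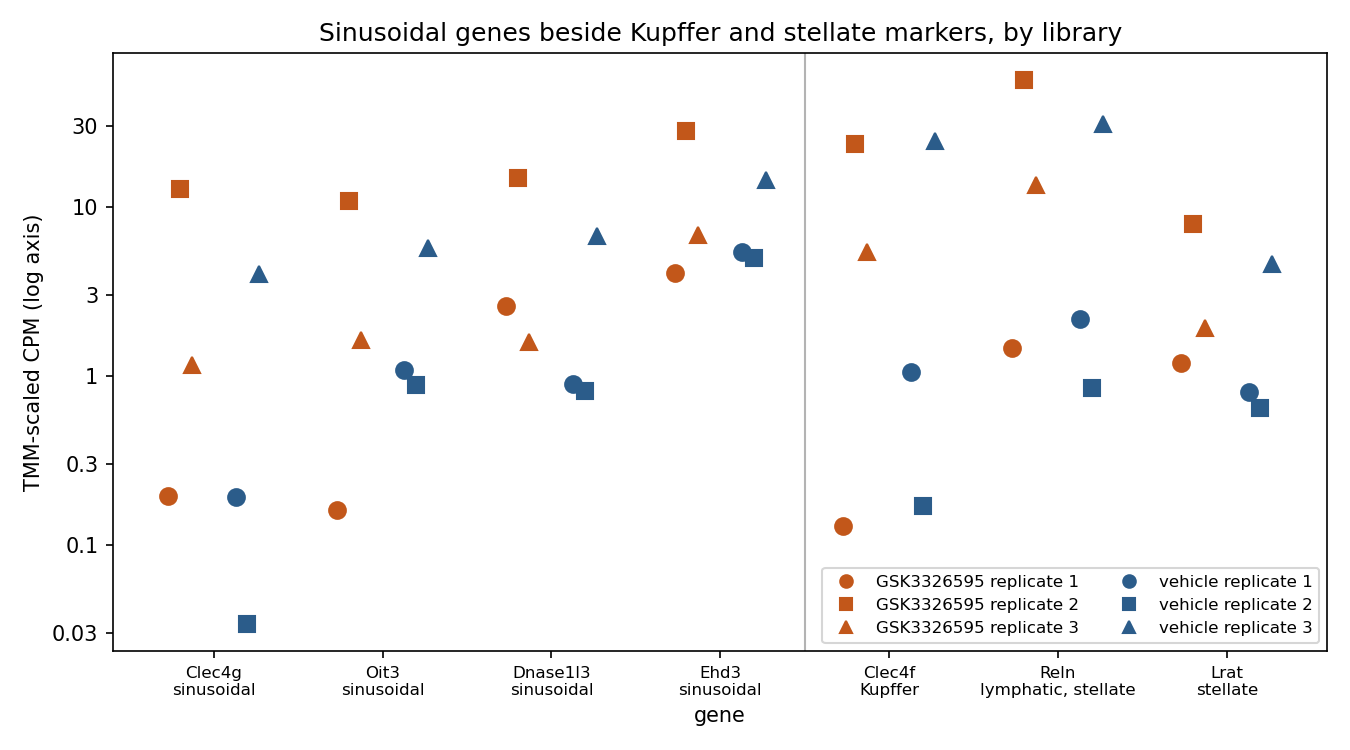
TMM-scaled CPM (log axis) of Clec4g, Oit3, Dnase1l3 and Ehd3 and, right of the grey line, of Clec4f, Reln and Lrat, in each library, with GSK3326595 left of vehicle at each gene and the point's shape giving the replicate number. The genes beside Clec4g and Oit3 were picked for this pattern after their values were seen: GSK3326595 replicate 2 is the highest GSK3326595 library and vehicle replicate 3 the highest vehicle library for the 7 genes shown.

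By the rule fixed for likeness, the kept genes closest to the mean sinusoidal profile were Ren1, Ehd3, Tcf21, Bmp10 and Wnt9b. The measure was the root mean square difference between log2 CPM profiles centred over the 6 libraries, which was 0.26 for Ren1 and between 0.43 and 0.45 for the other genes. All but Ehd3 were at low levels, the highest being 2.76 CPM for Ren1 in GSK3326595 replicate 2. Ehd3 and Wnt9b were among the listed sinusoidal genes, and Bmp10 among the listed ligands of endoglin's receptor complex. The genes closest to the mean pan-endothelial profile were Nod2, Ids, Smpdl3a, Mmrn2 and Ppp1r3d, at 0.06 to 0.11 log2 units. Mmrn2, an extracellular matrix protein of endothelium, was among them and on the pan-endothelial list, at 16.9, 15.5 and 9.63 CPM in GSK3326595 tumors and 6.63, 9.86 and 9.22 CPM in vehicle tumors.

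A further 20 pan-endothelial genes were all kept, with 18 higher and 2 lower values in GSK3326595 tumors and a median log2 difference of 0.67, near the 0.75 of Pecam1, Cdh5, Kdr and Eng. By edgeR 0 were called, 0 were lower and 4 higher at an unadjusted p under 0.05, where 5.45% of all genes tested were higher. Sox7, an endothelial transcription factor, had 3.32, 2.17 and 1.37 CPM in GSK3326595 tumors and 0.701, 0.884 and 1.10 CPM in vehicle tumors, with no overlap (log2 difference 1.35 ± 0.42, SE; edgeR unadjusted p = 0.0157, adjusted p = 0.504). Cd93, an endothelial adhesion receptor also found on myeloid cells, had 102.4, 44.6 and 38.3 CPM in GSK3326595 tumors and 18.1, 38.7 and 24.3 CPM in vehicle tumors (1.19 ± 0.46, SE; edgeR adjusted p = 0.524). Tie1, an orphan receptor of the angiopoietin system, had 22.3, 15.4 and 10.8 CPM in GSK3326595 tumors and 6.12, 9.69 and 10.2 CPM in vehicle tumors (0.89 ± 0.35, SE; edgeR adjusted p = 0.524). Ecscr, outside the rule for named genes, was the fourth, with a log2 difference of 0.89 ± 0.35 (SE). The count of 4 was 0 without GSK3326595 replicate 1 or vehicle replicate 1, 11 when GSK3326595 replicate 3 was left out and 2 for vehicle replicate 3. In those fits, the share of all genes tested in either direction was 10.6%, 3.4%, 13% and 10.2%, in that order.

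Cldn5, the claudin of tight junctions, and Flt1, the decoy receptor for VEGF-A, were the 2 genes with lower values, at -1.001 ± 0.558 and -0.42 ± 0.47 (log2, SE). Flt1 had 23.0, 21.4 and 12.7 CPM in GSK3326595 tumors and 20.4, 43.0 and 13.0 CPM in vehicle tumors, so a single vehicle library was high. Erg and Fli1, ETS factors of endothelium, had log2 differences of 1.04 ± 0.46 and 0.91 ± 0.44 (SE), with edgeR adjusted p values of 0.55 and 0.576. These 4 genes were chosen after their values were seen.

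Of 17 listed genes of capillaries, arteries and veins, 14 were kept, 11 with higher and 3 with lower values (median log2 difference 0.79). By edgeR, 2 were higher at an unadjusted p under 0.05, beside 5.45% of all genes tested. Cd34, a sialomucin of capillary endothelium, had 33.7, 15.9 and 13.5 CPM in GSK3326595 tumors and 5.93, 11.2 and 8.06 CPM in vehicle tumors, with no overlap (log2 difference 1.32 ± 0.43, SE; edgeR adjusted p = 0.52). Aplnr, the apelin receptor, had 1.06, 6.51 and 1.08 CPM in GSK3326595 tumors and 0.637, 0.408 and 1.10 CPM in vehicle tumors (2.00 ± 0.84, SE; edgeR adjusted p = 0.539). Sox17, an arterial transcription factor, differed by 1.15 ± 0.50 (log2, SE). The count of 2 was 6 when GSK3326595 replicate 3 was left out, 4 for vehicle replicate 2, 1 for GSK3326595 replicate 1 (median 0.24) and 0 for vehicle replicate 1. Beside these counts, the share of all genes tested in either direction was 13%, 5.61%, 10.6% and 3.4%, in that order.

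Esm1, Apln and Pgf had another order of libraries and were singled out for it after their values were seen. Esm1 encodes a proteoglycan of endothelial tip cells and had 22.2, 3.63 and 5.84 CPM in GSK3326595 tumors and 2.14, 8.20 and 1.70 CPM in vehicle tumors. Apln, which encodes apelin, had 30.6, 1.39 and 7.54 CPM in GSK3326595 tumors and 1.53, 15.7 and 0.507 CPM in vehicle tumors. Pgf, placental growth factor, had 9.90, 0.589 and 1.52 CPM in GSK3326595 tumors and 0.892, 4.25 and 0.477 CPM in vehicle tumors. All 3 were highest in GSK3326595 replicate 1 and second highest in vehicle replicate 2, and Clec4g was low in both of those libraries. Their groups overlapped, and the log2 differences were 1.40 ± 0.87, 1.16 ± 1.42 and 1.10 ± 1.19 (SE).

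The VEGF pathway had 7 higher and 2 lower values among 9 kept genes (median log2 difference 0.47). Of these, 1 was higher at an unadjusted p under 0.05, beside 5.45% of all genes tested. Nrp1, a co-receptor for VEGF-A beside Kdr, had 54.2, 50.5 and 24.8 CPM in GSK3326595 tumors and 15.4, 25.4 and 25.9 CPM in vehicle tumors (0.96 ± 0.36, SE; edgeR unadjusted p = 0.0325, adjusted p = 0.522). Nrp2, its relative in lymphatic growth, differed by 0.54 ± 0.25 and Vegfc, a lymphangiogenic ligand, by 0.85 ± 0.50 (log2, SE). Vegfa, the main ligand of Kdr, had 31.8, 55.6 and 25.8 CPM in GSK3326595 tumors and 44.9, 71.2 and 26.0 CPM in vehicle tumors, a log2 difference of -0.33 ± 0.43 (SE), and was added for its role. The median of the pathway was 0.01 without GSK3326595 replicate 2 and 0.06 without vehicle replicate 1. The count of 1 was 0 without GSK3326595 replicate 1 or 2 or vehicle replicate 1 or 2, 2 without GSK3326595 replicate 3 and 3 without vehicle replicate 3.

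Of 6 angiopoietin genes 5 were kept, all with higher values (median log2 difference 0.29). Tie1 was the 1 gene higher at an unadjusted p under 0.05, beside 5.45% of all genes tested. Angpt2, the antagonist ligand released by activated endothelium, had 38.2, 12.2 and 14.1 CPM in GSK3326595 tumors and 9.94, 29.6 and 10.02 CPM in vehicle tumors (0.38 ± 0.61, SE), so its 2 high libraries were also those of Esm1. Ptprb, the endothelial phosphatase that acts on Tie2, differed by 0.29 ± 0.46 (log2, SE). The median was -0.13 without GSK3326595 replicate 2 and 0.11 without vehicle replicate 1, and Tie1 passed that threshold neither without GSK3326595 replicate 1 nor without vehicle replicate 1 or 2.

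Around endoglin, 17 genes of BMP and TGF-beta signalling were kept, with 12 higher and 5 lower values (median log2 difference 0.31). At an unadjusted p under 0.05, 1 was higher and 2 were lower, beside 5.45% and 3.81% of all genes tested. Smad6, an inhibitory SMAD induced by BMP signals, had 4.58, 4.37 and 5.41 CPM in GSK3326595 tumors and 10.1, 8.13 and 7.64 CPM in vehicle tumors (-0.85 ± 0.24, SE; edgeR unadjusted p = 0.0104, adjusted p = 0.486). Smad9, a BMP-responsive SMAD, had 15.1, 46.0 and 18.8 CPM in GSK3326595 tumors and 75.3, 76.2 and 55.9 CPM in vehicle tumors (-1.38 ± 0.44, SE; edgeR adjusted p = 0.507). Tgfbr1, the type I TGF-beta receptor, had 110.5, 71.8 and 75.8 CPM in GSK3326595 tumors and 48.2, 52.4 and 58.1 CPM in vehicle tumors (0.70 ± 0.21, SE; edgeR adjusted p = 0.498). The groups did not overlap for these 3 genes, which many liver cell types express. Gdf2, which encodes BMP9, the ligand of endoglin made by stellate cells, was added for its role and had 0, 243 and 32 reads in GSK3326595 tumors against 5, 2 and 118 reads in vehicle tumors. It was thus high in the same libraries as Clec4g. The median of these 17 genes was 0.06 without GSK3326595 replicate 2 and 0.07 without vehicle replicate 1. Without vehicle replicate 1 neither Tgfbr1 nor Smad6, and without GSK3326595 replicate 3 not Smad9, was under an unadjusted p of 0.05.

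Notch signalling, which guides arterial fate and sprouting, had 10 higher and 3 lower values among 13 kept genes (median log2 difference 0.71). Hey1, a Notch target, had 1.61, 1.83 and 0.902 CPM in GSK3326595 tumors and 0.828, 0.646 and 0.686 CPM in vehicle tumors, without overlap (1.005 ± 0.377, SE; edgeR unadjusted p = 0.0335, adjusted p = 0.522). It was the list's 1 gene higher at an unadjusted p under 0.05, beside 5.45% of all genes tested. The ligands Jag1 and Dll1 differed by 0.84 ± 0.43 and -0.51 ± 0.29 (log2, SE). The median was 0.23 without GSK3326595 replicate 1. Hey1 passed the threshold with all libraries and without GSK3326595 replicate 3, but with none of the other 5 left out, and 4 other genes passed without vehicle replicate 3.

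Hyaluronan, the ligand of Stab2 and Lyve1, is made by Has enzymes and broken down by hyaluronidases. Of 10 listed genes 8 were kept, with 6 higher and 2 lower values (median log2 difference 0.32). At an unadjusted p under 0.05, 2 were higher, beside 5.45% of all genes tested. Tmem2, a cell surface hyaluronidase listed as Cemip2, had 60.2, 46.6 and 40.0 CPM in GSK3326595 tumors and 13.5, 19.1 and 24.5 CPM in vehicle tumors. Its groups did not overlap, and the log2 difference was 1.36 ± 0.28 (SE; edgeR unadjusted p = 0.00194, adjusted p = 0.456, DESeq2 adjusted p = 0.00457). It was at an edgeR unadjusted p under 0.05 without each library in turn. Cd44, a hyaluronan receptor of leukocytes and progenitor-like cells, had 25.3, 18.4 and 11.9 CPM in GSK3326595 tumors and 5.54, 12.3 and 9.01 CPM in vehicle tumors (1.05 ± 0.40, SE; edgeR adjusted p = 0.523). Cd44 was under an unadjusted p of 0.05 without GSK3326595 replicate 3 or vehicle replicate 2, and not with any of the other 4 left out. Has3, a hyaluronan synthase, differed by 0.34 ± 0.32 (log2, SE).

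Markers of other cell types also varied between libraries, and their part in the endothelial values was not tested. Of 8 leukocyte genes 5 were kept, 4 of them higher at an unadjusted p under 0.05 by edgeR, beside 5.45% of all genes tested. The list's sum was 154.6, 90.0 and 61.1 CPM in GSK3326595 tumors and 28.9, 104.7 and 38.8 CPM in vehicle tumors. S100a8, named after its values were seen, made up 55.7 CPM of the sum in vehicle replicate 2 and at most 2.02 CPM in any other library. It was the 1 kept gene with a lower value (log2 difference -4.68 ± 2.24, SE). Itgax, Nkg7 and Cd3g, genes of dendritic, cytotoxic and T cells, differed by 1.61 ± 0.32, 2.47 ± 0.52 and 2.46 ± 0.65 (log2, SE). DESeq2 called these 3, with adjusted p values of 0.000964, 0.0145 and 0.048, and edgeR did not, at adjusted p values of 0.456, 0.456 and 0.459. Pecam1 is also carried by leukocytes, and Ptprc, the pan-leukocyte CD45 gene added for that reason, had 135.9, 69.1 and 51.4 CPM in GSK3326595 tumors and 23.3, 44.0 and 33.2 CPM in vehicle tumors, without overlap (1.35 ± 0.41, SE; edgeR adjusted p = 0.499). GSK3326595 replicate 1 was the highest library for Ptprc, as for Pecam1 and Cdh5, and the part of leukocytes in these values was not tested.

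The 8 hepatocyte genes had 3 higher and 5 lower values (median log2 difference -0.08). Ttr, Tat and Apoa1 differed by 0.71 ± 0.36, 2.832 ± 1.505 and -0.90 ± 0.52 (log2, SE). Tat, an enzyme of tyrosine breakdown induced after birth, had 311.6 CPM in GSK3326595 replicate 2, against 1.48 and 28.1 CPM in the other GSK3326595 libraries and 11.7 to 19.9 CPM in vehicle tumors. The 5 erythroid genes, a measure of retained blood, had 1 higher and 4 lower values (median log2 difference -0.25). Of these 1, Hbb-bt, was lower at an unadjusted p under 0.05 by edgeR, beside 3.81% of all genes tested. The sum of the 5 was 262, 364 and 215 CPM in GSK3326595 tumors and 208.3, 303.2 and 494.9 CPM in vehicle tumors. Hbb-bt, Hba-a1 and Hbb-bs differed by -0.99 ± 0.40, -0.25 ± 0.34 and -0.26 ± 0.38 (log2, SE), and paralogous globins share reads, so their split is uncertain.

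Several of the 10 genes overlap other annotated genes. The Clec4g exons share 146 bases (5.93% of their length) with the antisense gene Gm16553, which held 8 reads in GSK3326595 replicate 2 and 0 in the other 5 libraries. Stab2 shares 141 exon bases (1.61%) with the antisense gene Gm16268, which held between 3.06 and 15.2 expected counts. Eng shares 61 (1.51%) with Fpgs, a protein-coding gene on the opposite strand. Fpgs held between 3403 and 4966 expected counts, above the 429 to 1233 reads of Eng. The library kit marks strand, but no source used here says whether counting used it, so these reads cannot be told apart.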

How the data were processed

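Tumor RNA was sequenced from strand-marking libraries, per the labels' protocols. What the authors deposited is 1 table of expected counts for each gene and library, without scaling; RSEM, STAR, cutadapt and Picard and the build mm10 are listed in the submitters' processing notes. No source used here names the annotation release. Of the deposited values 12.3% were not whole (tolerance 0), and all were rounded. Of 47643 genes, 47224 matched GENCODE M21 by ID without its version, and coordinates and exon lengths are from M21.

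Genes were filtered with filterByExpr (minimum count 10), TMM-scaled and compared by the two-sided quasi-likelihood test in edgeR 4.0.16 (R 4.3.3), with Benjamini-Hochberg adjustment over all 17012 genes and a threshold of 0.05. Standard errors were the size of the log2 difference over the root of F. A prior count of 2 went into log2 CPM. The same genes were also run through DESeq2 1.42.0 and limma-voom (limma 3.58.1). The 3 tools were run on simulated counts with planted differences. That run checked the median size of the recovered log2 differences, not the number of false calls. The common biological coefficient of variation was 0.409, which limits the precision at 3 libraries per group.

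Groups were taken from the labels. Alternatives were other scaling, filters and tools, a replicate block, removal of mitochondrial and rRNA genes, and leaving out each library. Members and lists were chosen with earlier results of these data known. Named beside the members were up to 3 genes of smallest unadjusted p per list and the 5 genes most like the sinusoidal or pan-endothelial mean, and genes added after their values were seen are said to be so. Lists were described by counts, with no set test. Vegfd and Cemip2 were matched by older symbols.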

Additional observations from a re-analysis of the deposited data

How the results depend on the processing

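The 0 genes called by edgeR stood under each scaling, filter, block and left-out library tried and by limma-voom, and became 186 higher and 100 lower by DESeq2, for which the cause was not tested. At an unadjusted p under 0.05, all genes came to 927 higher and 648 lower, 1547 higher with no filter on low counts (more genes tested), 430 lower with no scaling beyond total counts (where the median of all genes lay at 0.12), and 347 to 1629 higher and 241 to 961 lower without each library. The members at that threshold were 0, but 1 with no filter on low counts (Cdh5) and 1 with the replicate block (Lyve1), and 0 to 2 without each library.

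Of the members, Lyve1, Vwf, Pecam1, Cdh5, Kdr and Eng kept their direction in all 14 alternatives. Oit3 turned to -0.30 by limma-voom and -0.54 with the replicate block, and without single libraries Stab2 ranged from -0.88 to 0.16, Clec4g from -1.01 to 5.34, Oit3 from -1.47 to 2.11 and Plvap from -0.0598 to 0.27 (-0.0541 without vehicle replicate 1). The capillary median ranged from -1.16 to -0.072 without each library. The sinusoidal median was -0.34 by limma-voom and -0.46 with the replicate block, and the difference in sinusoidal minus capillary level ranged from 0.07 to 1.36. Same-numbered libraries deviated together at r = -0.07, 0.07 and 0.32 for numbers 1, 2 and 3. GSK3326595 replicate 1 correlated best with vehicle replicate 2 (0.32). With 3 libraries per group, these correlations cannot decide whether the numbers pair the samples. Removing mitochondrial and rRNA genes changed no direction or call. The counts of list members without each library were chosen after seeing the data. Clec4g, with 1 to 6 reads in 3 libraries, is where depth limits most.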
